A study of Mus musculus with 24 samples.

Results

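The nuclear genes of oxidative phosphorylation were followed through the cerebellum (CB) and hippocampus (HC) transcriptomes of 16Gso mice. The set was defined by gene symbol: the *Nduf* genes of the a, b, c, s and v series, *Sdha* to *Sdhd*, and the symbols that begin with *Uqcr*, *Cox4* to *Cox8* or *Atp5*, without pseudogene symbols that end in -ps. This rule found 84 of the 25793 symbols in the counts tables, and 0 symbols ending in -ps had to be removed. By complex, 35 genes belong to complex I, 4 to complex II, 7 to complex III, 19 to complex IV and 15 to complex V. *Ndufa4* and its paralog *Ndufa4l2* are counted with complex IV, where the Ndufa4 protein resides. The other 4 matches are not subunits. *Cox4nb* is an old symbol of the endoplasmic reticulum gene *Emc8*, *Cox7a2l* encodes a supercomplex factor, and *Atp5s* and *Atp5sl* are old symbols of *Dmac2l* and *Dmac2*. The tables hold 0 genes encoded by the mitochondrial genome, so only the nuclear side of each complex is described.

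16GsoT/T mice are homozygous for a reciprocal translocation between chromosomes 5 and 8 that breaks between *Auts2* and *Galnt17*, and they carry it in every cell from conception. They were compared with wild-type (WT) mice at postnatal day 14 (P14) and day 35 (P35). The labels state a C57BL/6 strain for all 24 libraries, whereas the study describes a C57BL/6 by C3H/He (B6C3) background, and the names of the WT libraries outside P14 CB carry B6C3. All mice were males by the study's account, and the mutants, all of 1 line that arose among offspring of males treated with bis-acrylamide, were bred from homozygous parents. Each of the 8 groups (WT P14 CB, 16GsoT/T P14 CB, WT P35 CB, 16GsoT/T P35 CB, and the same for HC) has 3 libraries, each from 1 animal. Whole CB or HC was extracted, so that in all results here fewer cells of a type and less RNA per cell cannot be told apart. Levels are given as CPM, the read counts of a gene scaled to a common number of reads on genes, with TMM factors over all libraries.

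The libraries held between 2563968 and 40564789 reads on genes, with the fewest in P35 HC and the most in P14 CB. In P14 CB, between 64.8% and 68.1% of the reads fell on genes, against 37.6% to 42.4% in the other groups. By the lane codes in the library names, P14 CB and P35 CB each held both genotypes in 1 lane code, as did P35 HC, whereas the WT and 16GsoT/T libraries of P14 HC were in different lanes. Genotype in P14 HC, region and age therefore cannot be told apart from lane and library preparation. In P35 HC, WT replicate 1 alone shared its index design with the 16GsoT/T libraries. The markers of both regions followed the labels, with a summed level of 5519 to 7143 CPM for 10 cerebellar markers in CB and 137 to 330.0 CPM in HC. Striatum markers ranged widely within WT P14 HC, from 46.19 to 343.1 CPM, against 53.18 to 68.05 CPM in 16GsoT/T P14 HC. What this difference in tissue meant for the members was not tested. *Galnt17*, listed as *Wbscr17*, was at 18.2 to 22.1 CPM in the 16GsoT/T libraries of P14 CB and at 39.8 to 43.2 CPM in WT, and its levels were also lower in 16GsoT/T without overlap in the other 3 pairs of groups.

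In oxidative phosphorylation, electrons from NADH enter at complex I and electrons from succinate at complex II. They pass through complex III and cytochrome c to complex IV, which reduces oxygen, and the protons pumped on the way drive ATP synthesis by complex V. Neurons depend heavily on this pathway to restore ion gradients after firing. Many of the nuclear subunit genes are known targets of the transcription factors NRF1 and GABP, an ETS family factor, and of the coactivator encoded by *Ppargc1a*.

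The promoters of 6 members that rose in 16GsoT/T P35 CB are shown to give the sequence context, 1 for each complex with an NRF1 or ETS match and *Atp5b*, the catalytic beta subunit of complex V, which has neither. The RefSeq windows of GRCm38.p6 run from 250 bases before to 50 bases after the transcript start and are written 5′ to 3′ along the gene. Capitals mark GCGCANGCG (NRF1) or CCGGAAG (ETS) on either strand, and overlapping matches are joined.
Ndufs6 (chr13:73328433-73328732, minus strand): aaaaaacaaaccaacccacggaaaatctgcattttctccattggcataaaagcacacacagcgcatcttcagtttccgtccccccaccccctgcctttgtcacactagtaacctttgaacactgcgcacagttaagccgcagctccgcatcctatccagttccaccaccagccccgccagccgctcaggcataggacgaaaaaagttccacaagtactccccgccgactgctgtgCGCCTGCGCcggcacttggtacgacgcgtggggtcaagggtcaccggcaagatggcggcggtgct
Sdha (chr13:74350191-74350490, minus strand): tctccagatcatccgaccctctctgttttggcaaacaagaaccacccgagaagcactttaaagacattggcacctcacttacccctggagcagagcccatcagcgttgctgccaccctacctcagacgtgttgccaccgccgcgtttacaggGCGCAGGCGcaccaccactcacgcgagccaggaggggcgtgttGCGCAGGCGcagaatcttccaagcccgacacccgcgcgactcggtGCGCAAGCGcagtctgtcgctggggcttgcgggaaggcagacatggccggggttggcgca
Uqcr (chr10:80406772-80407071, minus strand): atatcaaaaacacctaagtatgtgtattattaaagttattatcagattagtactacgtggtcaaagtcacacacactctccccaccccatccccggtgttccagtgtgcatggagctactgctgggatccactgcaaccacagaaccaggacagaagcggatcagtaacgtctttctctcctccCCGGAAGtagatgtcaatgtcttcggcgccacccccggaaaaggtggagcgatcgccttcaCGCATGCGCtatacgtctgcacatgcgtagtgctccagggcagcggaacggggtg
Cox6a1 (chr5:115348909-115349208, minus strand): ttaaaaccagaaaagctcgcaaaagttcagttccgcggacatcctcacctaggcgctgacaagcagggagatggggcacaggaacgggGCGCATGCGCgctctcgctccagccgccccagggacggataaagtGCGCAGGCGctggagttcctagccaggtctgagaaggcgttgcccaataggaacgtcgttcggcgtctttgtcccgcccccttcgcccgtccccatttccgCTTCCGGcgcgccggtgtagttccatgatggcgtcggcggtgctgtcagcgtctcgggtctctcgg
Atp5o (chr16:91931581-91931880, minus strand): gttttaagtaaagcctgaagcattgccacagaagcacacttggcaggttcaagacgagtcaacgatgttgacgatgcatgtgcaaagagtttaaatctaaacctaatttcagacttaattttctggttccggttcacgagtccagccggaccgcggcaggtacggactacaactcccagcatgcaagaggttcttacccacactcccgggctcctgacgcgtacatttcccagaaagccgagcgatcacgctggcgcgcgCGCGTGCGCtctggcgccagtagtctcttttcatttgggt
Atp5b (chr10:128083057-128083356, plus strand): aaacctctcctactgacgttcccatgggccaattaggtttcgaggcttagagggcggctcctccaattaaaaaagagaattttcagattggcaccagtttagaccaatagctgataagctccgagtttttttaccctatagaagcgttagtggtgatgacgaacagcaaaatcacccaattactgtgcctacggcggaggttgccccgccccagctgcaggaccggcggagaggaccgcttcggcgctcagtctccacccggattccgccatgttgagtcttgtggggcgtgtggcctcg
These positions are from GRCm38.p6, whereas the counts were made on NCBIM37. RefSeq windows were found for 68 of the 84 members, 74 windows in all. The NRF1 letters occurred in 28.4% of these windows and in 6.25% of all 32851 windows, and the ETS letters in 21.6% and 8.86%. AAGATGG, the core letters of YY1, occurred in 17.6% and 6.34%, TCAAGGTCA of the estrogen-related receptors in 2.70% and 0.423%, and CCAAT in 41.9% and 37.4%. The matches are a description of letters, not of occupied sites. Among members called higher in P35 CB, the NRF1 letters occurred in 16 of 45 windows (35.6%), and among the tested members that were not called in 5 of 27 (18.5%). The ETS letters occurred in 13 of 45 (28.9%) and in 3 of 27 (11.1%), the YY1 letters in 7 (15.6%) and 6 (22.2%), the letters of the estrogen-related receptors in 1 (2.22%) and 1 (3.70%), and CCAAT in 19 (42.2%) and 11 (40.7%). The 45 windows belong to 42 genes and the 27 to 24, so that a match can be counted more than once. Overlapping windows of *Ndufa5* (called) share an NRF1 match, and those of *Atp5sl* (not called) a YY1 match. The uncalled members include rare isoforms and genes that are not subunits.

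Subunit genes of every complex were more abundant in 16GsoT/T than in WT CB at P35. The levels of all subunit genes of the 5 complexes summed to 10777, 10985 and 10161 CPM in the WT libraries of P35 CB and to 13638, 12228 and 13483 CPM in the 16GsoT/T libraries. The groups did not overlap, and the mean of 13116 ± 773 CPM (SD, n = 3) in 16GsoT/T was 23.3% above the mean of 10641 ± 429 CPM in WT. The mean sums were 18.6% higher for complex I, 20.6% for complex II, 20.4% for complex III, 25.2% for complex IV and 26.3% for complex V, without overlap between the groups in any of the complexes. At P14 the CB sums overlapped, with 10484 ± 178 CPM in WT against 10576 ± 513 CPM in 16GsoT/T. They also overlapped in P14 HC, at 12204 ± 396 and 12075 ± 417 CPM, and in P35 HC, at 10102 ± 182 and 10107 ± 1599 CPM.

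**Figure D1:**
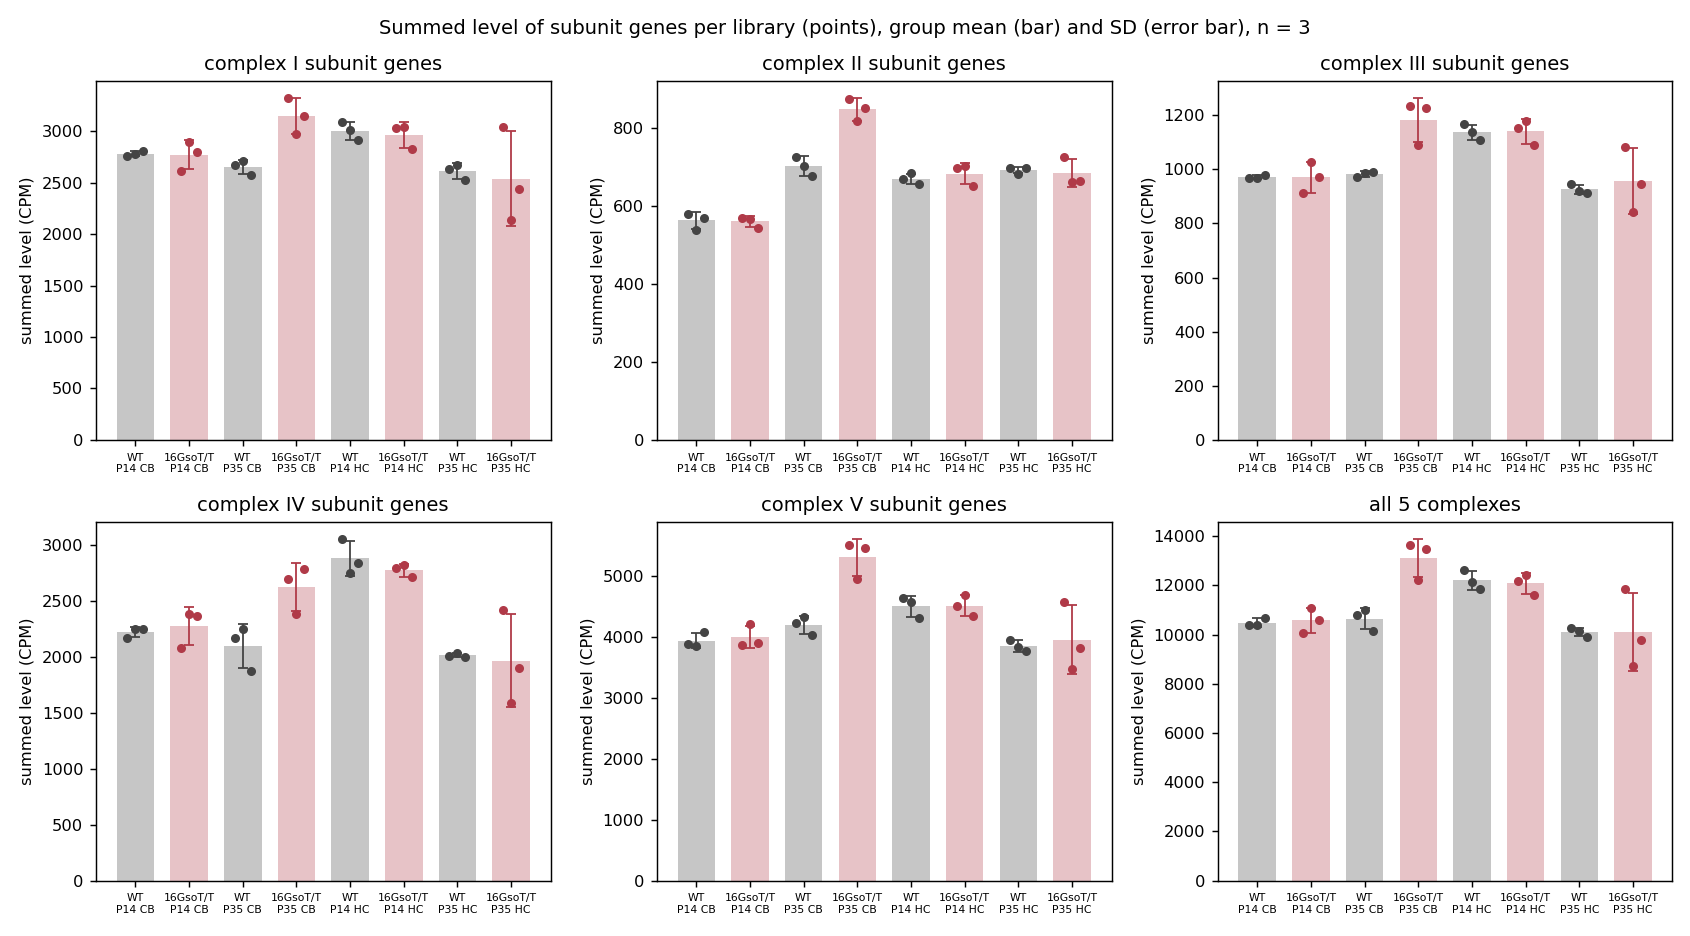
Summed level (CPM, linear axis from 0) of the subunit genes of each complex and of all 5 complexes in the 8 groups, with WT in grey and 16GsoT/T in red. Points are the 3 libraries of a group, bars the mean and error bars the SD; the 16GsoT/T libraries of P35 CB lie above the WT libraries in every panel, and those of P35 HC spread most.

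In P35 HC, 1 library was high and another low across nearly all subunit genes. Of the 72 subunit genes with at least 10 counts in every library, 69 were highest in 16GsoT/T P35 HC replicate 1 and 63 were lowest in replicate 2. The sums of all 5 complexes were 11846, 8700.5 and 9775.7 CPM in these 3 libraries. The cytosolic ribosomal protein genes followed the same order, with summed levels of 15703, 10771 and 12768 CPM, and replicate 2 had the fewest reads of all libraries. Choroid plexus markers also had this order, at 1773, 358 and 1418 CPM. The sums of neuron, astrocyte and oligodendrocyte markers had the reverse order, highest in replicate 2 and lowest in replicate 1. The part of tissue makeup and of read number in this spread was not tested. The median ratio of the highest to the lowest library was 1.49 over the 72 genes in this group, against 1.08 to 1.17 in the other 7 groups. The effect of leaving out these libraries is given beside the counts that change.

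The first question was whether genotype changed single subunit genes in each region and age. Genotype effects are log2 fold changes of 16GsoT/T over WT from edgeR's quasi-likelihood test on 6 libraries, and a gene was called when its p, adjusted over all tested genes after Benjamini and Hochberg, was 0.05 or less. In P35 CB, 80 members passed the filter on low counts, and 48 of them were called higher and 0 lower, where 17.4% of all 14004 tested genes were called higher and 18% lower. DESeq2 called 40 members higher and 0 lower, and a single edgeR fit of all 12 P35 libraries, which shares the wider spread of HC, called 21. Without WT replicate 3 the count was 32, and without 16GsoT/T replicate 2 it was 53. Of the 48, 28 were called in each of the 6 fits without 1 library. Among the rest, *Ndufs7* and *Uqcrq* were called in 2 of these fits, *Cox8a* in 3 and *Cox6a1* in 4. With a fold change of at least 1.5 required as well, the count was 0. At an unadjusted p under 0.05, 55 were higher and 1 lower, where 45.0% of all genes passed in either direction. The 16GsoT/T libraries were all above the WT libraries for 52 members, against 24.8% of all genes. The median log2 fold change over the 80 members was 0.28, against -0.00399 over all genes, and 76 members had a positive value. The 4 members that were not tested, *Cox6a2*, *Cox7b2*, *Cox8b* and *Cox8c*, are isoforms of low abundance. The plot of fold changes in P35 CB gives the genes with their standard errors (SE).

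**Figure D2:**
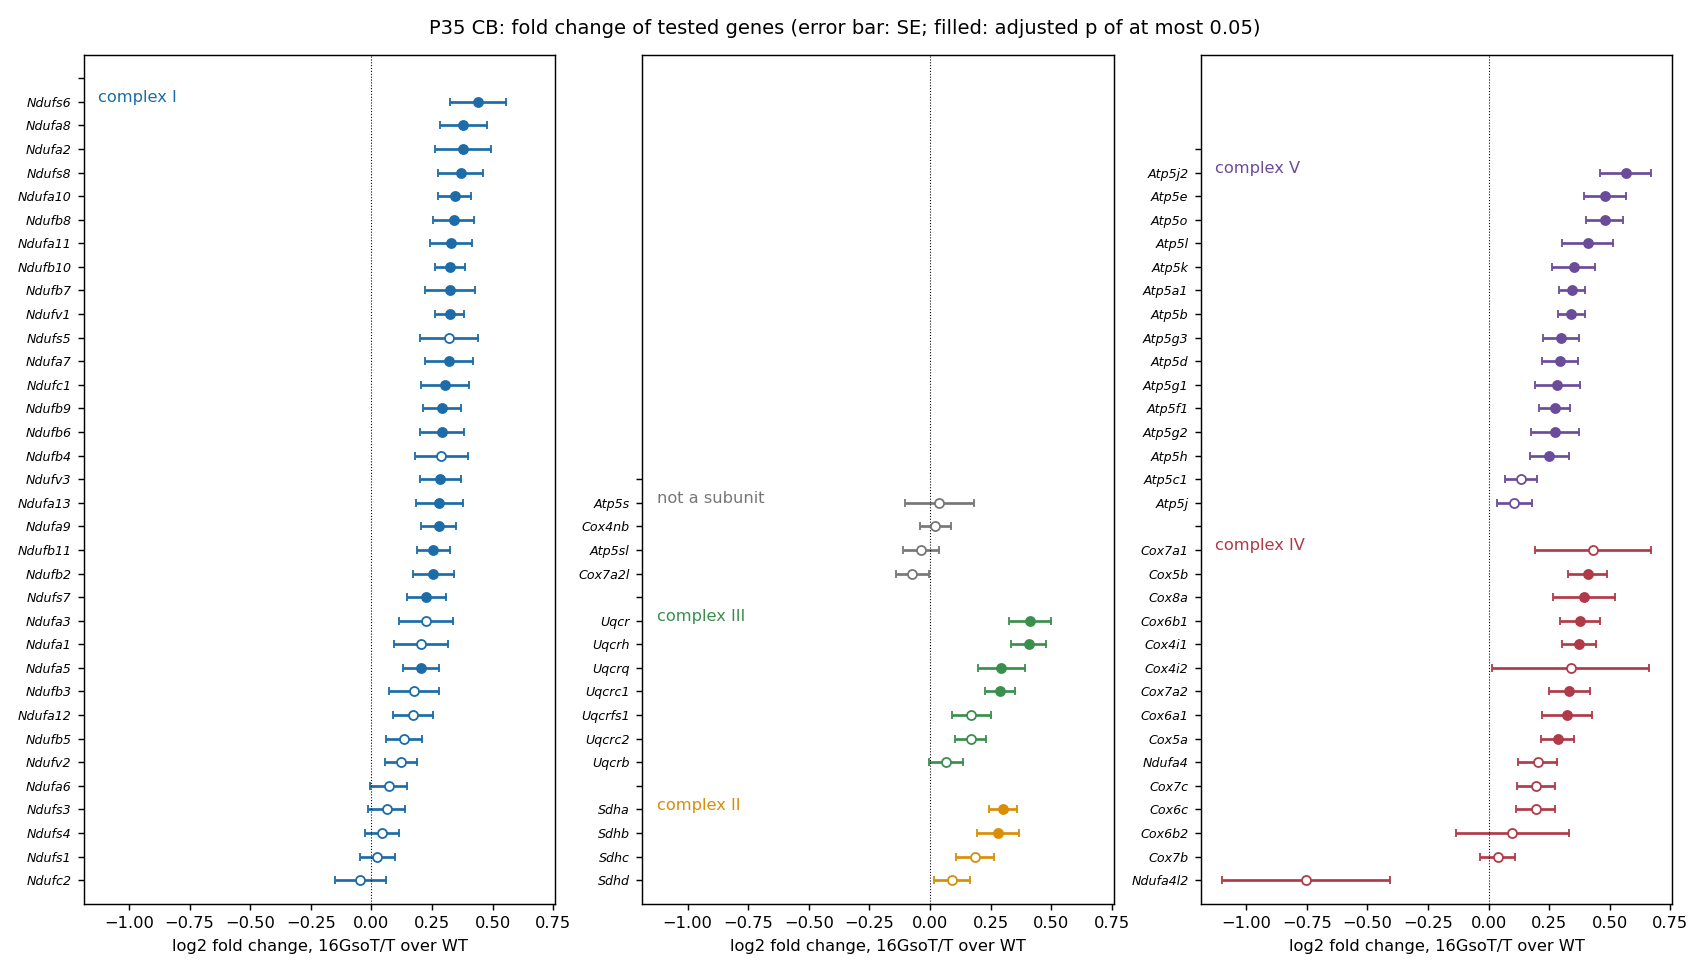
Log2 fold change of 16GsoT/T over WT in P35 CB (x axis) for the tested members reported here, grouped by complex, with the SE as error bar. Filled points are called at an adjusted p of at most 0.05; all filled points lie above 0, with the highest at 0.57 (*Atp5j2*), and the 4 members that are not subunits lie near 0.

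Complex V, the ATP synthase, had the highest share of called genes, 13 of 15, with a median log2 fold change of 0.30. *Atp5j2*, which encodes the f subunit of the membrane part, lies on chromosome 5 at 145944567 to 145952931 (NCBIM37, minus strand). Its level was 54.7, 66.7 and 55.6 CPM in the WT libraries and 102, 78.2 and 86.8 CPM in 16GsoT/T, and the log2 fold change was 0.57 ± 0.10 (SE; adjusted p 0.00133 by edgeR). No library of one genotype reached into the range of the other, and this was the largest increase of any member. *Atp5e*, the epsilon subunit of the central stalk, was at 79.6, 84.5 and 76.4 CPM in WT against 122, 98.6 and 119 CPM in 16GsoT/T (log2 fold change 0.48 ± 0.09, adjusted p 0.00104 by edgeR). *Atp5o*, the stalk subunit that confers oligomycin sensitivity, was at 169, 172 and 164 CPM in WT against 253, 208 and 251 CPM in 16GsoT/T (0.48 ± 0.08, adjusted p 0.000456 by edgeR). Replicate 2 was the lowest 16GsoT/T library for all of these genes, and still above each WT library. The catalytic core rose as well, with 0.34 ± 0.05 for *Atp5a1* and 0.34 ± 0.06 for *Atp5b*, the most abundant member. *Atp5b* was at 1424, 1445 and 1372 CPM in WT against 1826, 1712 and 1889 CPM in 16GsoT/T. The c ring is encoded by *Atp5g1*, *Atp5g2* and *Atp5g3*, which yield the same mature protein, and all were called higher, by 0.28, 0.27 and 0.30. The genotypes overlapped for *Atp5g1* and *Atp5g2*, and each kept its call in 2 of the 6 fits without 1 library, whereas *Atp5g3* kept it in all 6. The genes of complex V that were not called were *Atp5c1*, the gamma subunit, at 0.13 ± 0.07, and *Atp5j*, the F6 coupling subunit, at 0.11 ± 0.07.

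In complex I, the NADH dehydrogenase, 22 of 35 genes were called higher, with a median of 0.28. *Ndufs6*, which encodes an accessory subunit of the peripheral arm, lies on chromosome 13 at 73457286 to 73465990 (NCBIM37, minus strand) and its promoter is the first of those printed above. It was at 28.7, 31.5 and 27.9 CPM in WT against 48.1, 38.0 and 35.7 CPM in 16GsoT/T, a log2 fold change of 0.44 ± 0.12 (adjusted p 0.0107 by edgeR). *Ndufa8*, an accessory subunit on the side of the intermembrane space, was at 61.4, 59.4 and 47.9 CPM in WT against 76.3, 67.8 and 78.8 CPM in 16GsoT/T (0.38 ± 0.10, adjusted p 0.00884 by edgeR). The groups did not overlap for either gene, but *Ndufa8* varied more among WT libraries, with replicate 3 lowest. The core subunits, which carry the catalytic centres, did not move alike. *Ndufv1*, which binds NADH and FMN, was at 151, 149 and 149 CPM in WT against 198, 179 and 190.1 CPM in 16GsoT/T (0.32 ± 0.06, adjusted p 0.00127 by edgeR). *Ndufs8*, which binds iron-sulfur clusters, was called at 0.37 ± 0.09 and *Ndufs7* at 0.23 ± 0.08. *Ndufs1*, the largest core subunit with several iron-sulfur clusters, was at 198, 187 and 176 CPM in WT against 211, 193 and 174 CPM in 16GsoT/T (0.02 ± 0.07, adjusted p 0.823 by edgeR). The groups of *Ndufs1* overlapped fully. Further core genes that were not called were *Ndufs3* at 0.06 ± 0.08 and *Ndufv2* at 0.12 ± 0.07. Among the accessory genes, *Ndufs4*, *Ndufa6* and *Ndufc2* had values of 0.04, 0.07 and -0.05.

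Of the succinate dehydrogenase genes of complex II, *Sdha* and *Sdhb* were called, and *Sdhc* and *Sdhd* were not. *Sdha*, the flavoprotein subunit that oxidizes succinate in both the tricarboxylic acid cycle and the respiratory chain, was at 415, 400.1 and 376 CPM in WT against 495, 491 and 498 CPM in 16GsoT/T (0.30 ± 0.06, adjusted p 0.00164 by edgeR). The 16GsoT/T libraries lay closer together than the WT libraries, and the groups were apart. *Sdhb*, the iron-sulfur subunit, was at 111, 113 and 106 CPM in WT against 156, 118 and 132 CPM in 16GsoT/T (0.28 ± 0.09, adjusted p 0.0252 by edgeR), with replicate 1 far above the others. *Sdhb* kept its call in 2 of the 6 fits without 1 library and *Sdha* in all 6. The membrane anchor genes had values of 0.19 ± 0.08 for *Sdhc* (adjusted p 0.0830) and 0.09 ± 0.07 for *Sdhd* (adjusted p 0.375, both by edgeR).

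Complex III, the cytochrome bc1 complex, had 4 of 7 genes called, and its small subunits led. *Uqcr* (now *Uqcr11*) was at 61.5, 58.8 and 60.7 CPM in WT against 91.1, 72.4 and 79.9 CPM in 16GsoT/T (0.41 ± 0.09, adjusted p 0.00295 by edgeR). *Uqcrh*, the hinge protein that aids electron transfer to cytochrome c, was at 147, 139 and 148 CPM in WT against 201, 172 and 206 CPM in 16GsoT/T (0.41 ± 0.07, adjusted p 0.00112 by edgeR). For both, each 16GsoT/T library was above each WT library. The core protein gene *Uqcrc1* was called at 0.29 ± 0.06 and *Uqcrq* at 0.29 ± 0.10, while the genotypes overlapped for *Uqcrq*. The Rieske iron-sulfur protein gene *Uqcrfs1* had a value of 0.17 ± 0.08 (adjusted p 0.113), *Uqcrc2*, the other core protein, 0.17 ± 0.06 (adjusted p 0.0566), and *Uqcrb*, which lies at the ubiquinone site, 0.07 ± 0.07 (adjusted p 0.508, all by edgeR).

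In complex IV, cytochrome c oxidase, 7 of the 15 tested genes were called, and 0 of the 7 are among the rare isoforms described below. *Cox5b*, the zinc-binding subunit, was at 164, 162 and 134 CPM in WT against 218, 188 and 212 CPM in 16GsoT/T (0.41 ± 0.08, adjusted p 0.00204 by edgeR). *Cox4i1*, which carries the allosteric site for ATP, was at 394, 400.0 and 353 CPM in WT against 505, 466 and 531 CPM in 16GsoT/T (0.37 ± 0.07, adjusted p 0.00133 by edgeR). WT replicate 3 was the lowest library for both. *Cox8a* was called at 0.39 ± 0.13, but the highest WT library (349.3 CPM) and the lowest 16GsoT/T library (349.7 CPM) nearly met. *Cox6b1*, *Cox7a2*, *Cox6a1* and *Cox5a* were called at 0.38, 0.33, 0.32 and 0.28. *Ndufa4*, *Cox7c* and *Cox6c* had values of 0.20, 0.20 and 0.19 with adjusted p of 0.0718, 0.0660 and 0.0761 (edgeR), and *Cox7b* 0.04 ± 0.07. *Ndufa4l2*, known as a gene induced by hypoxia, was the member with the lowest value. It was at 1.74, 2.46 and 3.37 CPM in WT against 1.56, 1.28 and 1.64 CPM in 16GsoT/T (-0.75 ± 0.35, adjusted p 0.110 by edgeR), without overlap but at few counts, and it passed the filter on low counts through the WT libraries.

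The 48 called subunit genes had a median exon length of 1322 bases and a median level of 6.79 on the log2 CPM scale, and the 24 uncalled ones with at least 4 log2 CPM had 1310 bases and 6.58. The median SE was 0.084 for the former and 0.077 for the latter, and the median log2 fold change 0.32 and 0.15. Many subunit genes have processed pseudogenes, which can take or lose reads. Of 43 tested members with at most 5% of their 32-base words found elsewhere in the genome, 25 were called higher with a median of 0.28, and of 36 with more such words 22, also with a median of 0.28. For the called gene with the largest change in each complex, the share of such words was 19.6% (*Ndufs6*), 0% (*Sdha*), 54.8% (*Uqcr*), 70.7% (*Cox5b*) and 15.9% (*Atp5j2*). The levels of *Cox5b* and *Uqcr* are thus the most open to this limit among these genes. On the rearranged chromosomes, the 3 tested members on chromosome 5 (*Atp5j2*, *Atp5k* and *Cox6a1*) and 3 of the 4 on chromosome 8 (*Cox4i1*, *Ndufa13* and *Ndufb7*, not *Cox4nb*) were called higher, and the other called members lie elsewhere or, for *Ndufb8*, have no position in the annotation used.

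Glycolysis and cytosolic ribosome genes were also called higher in P35 CB, as were some genes of the tricarboxylic acid cycle, whereas the assembly factors, the electron carriers and the biogenesis regulators had called genes in both directions. Of 17 genes of glycolysis, the pathway that splits glucose in the cytosol, 16 were called higher in P35 CB and 0 lower, with a median of 0.43. The 3 with the largest values were *Hk1* (0.66 ± 0.07), the hexokinase of brain, *Aldoa* (0.65 ± 0.07) and *Eno2* (0.57 ± 0.10). Of 17 genes of the tricarboxylic acid cycle, 6 were called higher and 0 lower with a median of 0.13, led by *Ogdh* (0.58 ± 0.06), *Mdh2* (0.48 ± 0.08) and *Cs* (0.38 ± 0.06). Of 78 tested cytosolic ribosomal protein genes, 56 were called higher and 0 lower, with a median of 0.30. Of 75 mitochondrial ribosomal protein genes, 15 were called higher, near the share of all genes, and 1 lower, with a median of 0.14. Of 29 assembly factors, which build the complexes, 3 were called higher and 4 lower, with a median of 0.08. Both are smaller shares than those of all genes. *Cox10*, which makes heme for complex IV, had 0.51 ± 0.11, and *Cox18*, which inserts a subunit of complex IV, -0.70 ± 0.18. Among 20 electron carriers and further subunits, 2 were higher and 3 lower, the largest change being *Pdss1* of ubiquinone synthesis at -1.08 ± 0.15, and cytochrome c itself (*Cycs*) was at 0.06 ± 0.08. Of 20 regulators of mitochondrial biogenesis, 1 was higher and 4 were lower, the latter near the share of all genes. Named as known regulators and not for their values, *Ppargc1a* was at 0.05 ± 0.10, *Nrf1* at 0.07 ± 0.13 and *Tfam* at -0.17 ± 0.08, none of them called, while *Gabpa*, which encodes the DNA-binding part of GABP, was called lower at -0.28 ± 0.08. Short genes as a class moved little, with a median of 0.07 over 393 tested genes of under 1000 exon bases outside these sets.

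**Figure D3:**
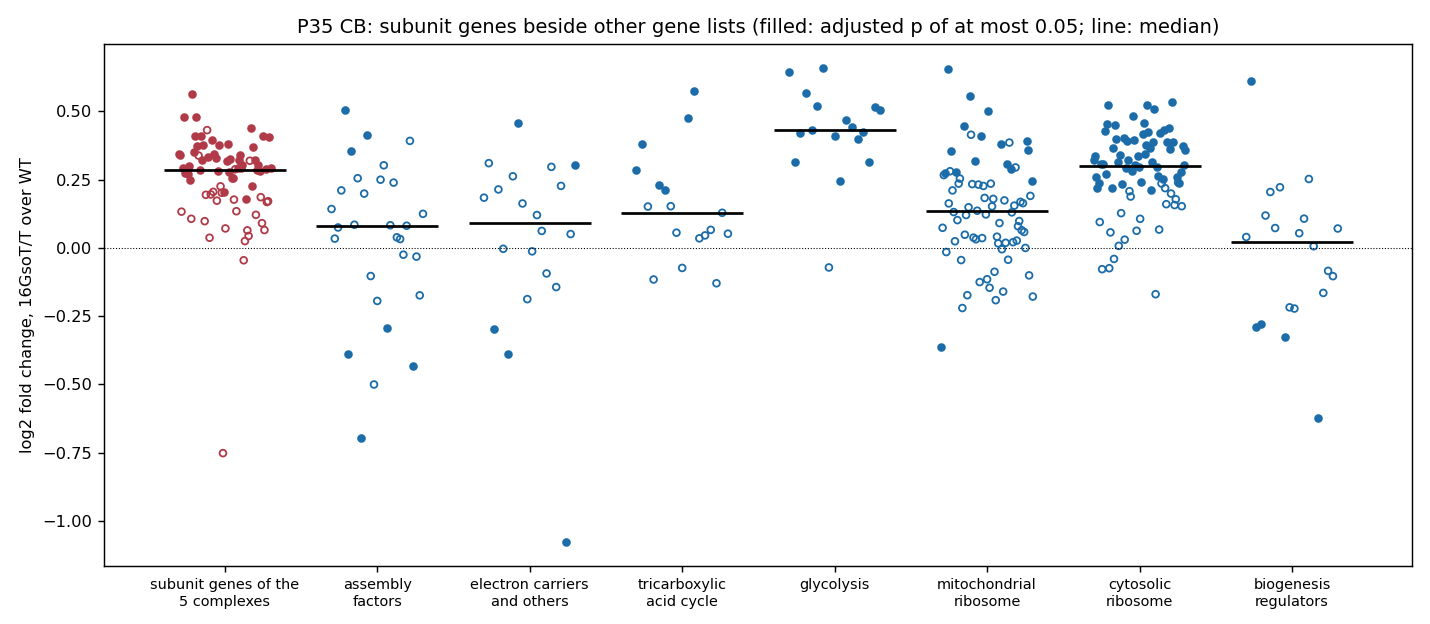
Log2 fold change of 16GsoT/T over WT in P35 CB (y axis) for the subunit genes (red) beside genes of 7 other lists (blue), 1 point a gene, filled where called at an adjusted p of at most 0.05, with the median as a line. The medians of glycolysis (0.43) and of the cytosolic ribosome (0.30) lie near or above those of the subunit genes, and those of the assembly factors (0.08) and the biogenesis regulators (0.02) near 0.

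Cell type markers moved with genotype in the same libraries. The summed level of 9 neuron markers was 3754 to 4206 CPM in WT P35 CB and 5697 to 5869 CPM in 16GsoT/T, and 4 of the 9 genes were called higher. Endothelial and mural markers were lower for 9 of 9 genes, at 171 to 188 CPM in WT against 88.9 to 98.4 CPM in 16GsoT/T. Choroid plexus markers, from an epithelium that can be carried along in dissection, summed to 20.5, 1221 and 2101 CPM in WT against 139, 376 and 279 CPM in 16GsoT/T. The WT library with hardly any choroid plexus signal, replicate 1, had a sum of subunit genes of 10777 CPM, between those of the other WT libraries. The WT library with the most, replicate 3, had the lowest sum of subunit genes (10161 CPM), and replicate 2 had the highest (10985 CPM). Blood markers were at 117 to 167 CPM in WT and 173 to 282 CPM in 16GsoT/T, with 2 of 4 called higher and 1 lower. The sums of astrocyte markers (3307 to 3762 against 3271 to 3551 CPM), oligodendrocyte markers (8050 to 8348 against 6521 to 9911 CPM) and microglia markers (81.3 to 89.1 against 81.1 to 86.8 CPM) overlapped. No marker of these lists was at 0 in either group. The share of reads on genes was 37.6% to 37.7% in WT and 42.3% to 42.4% in 16GsoT/T. The part of cell makeup and of this difference between libraries in the change of the subunit genes was not tested.

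In the other 3 comparisons of genotype, 0 members were called by edgeR or by DESeq2. In P14 CB, 81 members were tested, with a median log2 fold change of 0.01, and 0.0938% of all genes were called higher and 0.413% lower. At an unadjusted p under 0.05, 1 member was higher and 0 lower, where 8.89% of all genes passed in either direction. This was *Ndufa3*, an accessory subunit of complex I, named here after its value was seen, with 49.8, 51.7 and 49.4 CPM in WT against 57.9, 61.6 and 58.9 CPM in 16GsoT/T (0.24 ± 0.06, adjusted p 0.182 by edgeR). In P14 HC, 81 members were tested, with a median of -0.02, where 0.361% of all genes were called higher and 0.453% lower, and 1 member was higher and 2 were lower at an unadjusted p under 0.05 (17.5% of all genes in either direction). These were *Atp5f1*, the b subunit of the stator of complex V, at 0.17 ± 0.06 (adjusted p 0.201), *Ndufc2* at -0.22 ± 0.06 (adjusted p 0.135) and *Cox6a1* at -0.20 ± 0.08 (adjusted p 0.226, all by edgeR). In P35 HC, 77 members were tested, with a median of -0.04, 0.112% of all genes were called higher and 0.0225% lower, and 0 members passed an unadjusted p of 0.05 (8.84% of all genes). Choroid plexus markers summed to 81.6 to 96.6 CPM in WT P35 HC and 358 to 1773 CPM in 16GsoT/T. Microglia markers summed to 234.7 to 263.8 and 285.5 to 305.9 CPM. The sums of neuron, astrocyte, oligodendrocyte, blood, and endothelial and mural markers overlapped in P35 HC. The part of cell makeup in P35 HC was not tested. Members whose genotypes did not overlap with 16GsoT/T above numbered 3 of 81 in P14 CB (6.66% of all genes), 2 of 81 in P14 HC (12.8%) and 1 of 77 in P35 HC (5.82%). Those with 16GsoT/T below numbered 1 (7.05% of all genes), 6 (10.8%) and 1 (6.93%). The biological coefficient of variation, the fitted spread between libraries of a group, was 0.125 in P35 HC and 0.0749 in P35 CB, so that changes of the size seen in P35 CB were harder to detect in P35 HC.

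**Figure D4:**
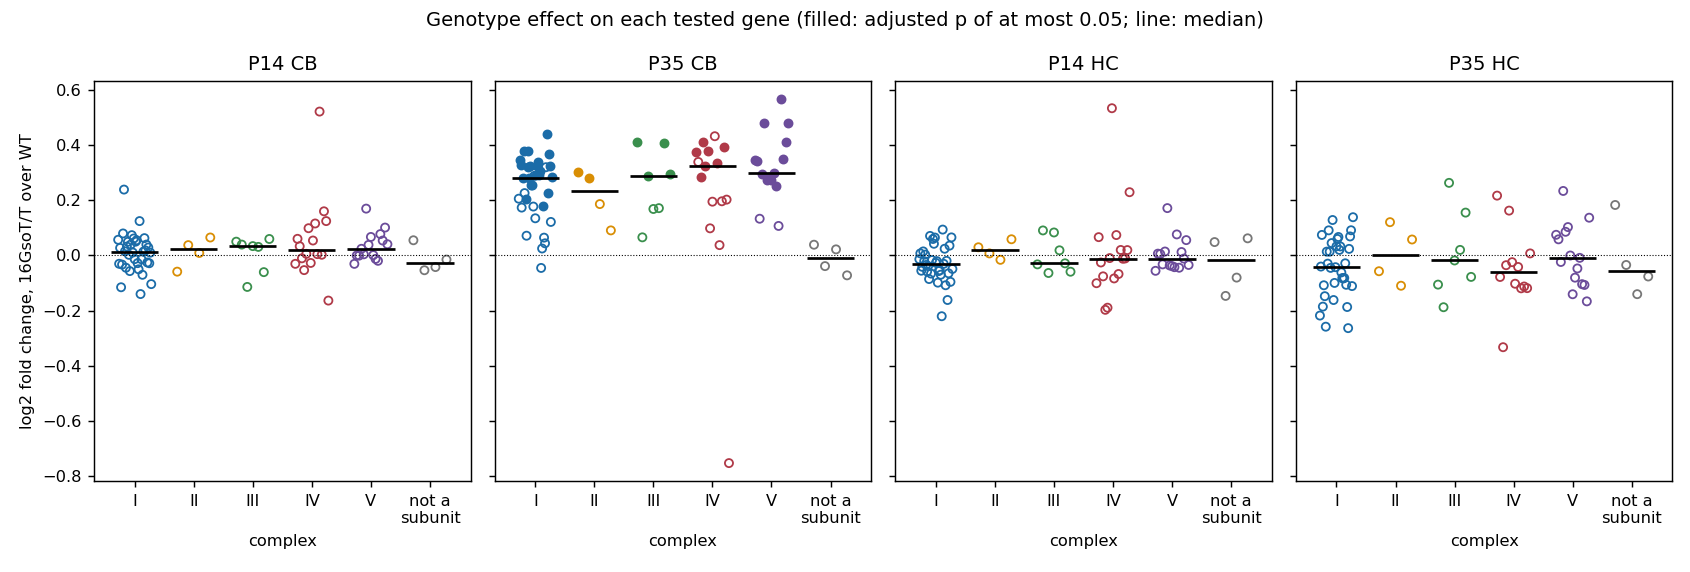
Log2 fold change of 16GsoT/T over WT (y axis) for each tested member in the 4 comparisons of genotype, by complex, filled where called at an adjusted p of at most 0.05, with the median as a line. In P35 CB 48 points are filled, all above 0, and in the other panels, where 0 are filled, the points lie on both sides of 0.

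The second question was whether the genotype effect differed between ages or regions, which was tested with interaction terms over 12 libraries. In CB, 13 of 81 members had a larger effect at P35 than at P14 and 0 a smaller one, where 7.81% of all genes were called with a larger and 10.8% with a smaller effect. The 3 members with the largest differences were *Atp5j2* (0.48 ± 0.15, adjusted p 0.0395), *Uqcrh* (0.46 ± 0.11, adjusted p 0.00805) and *Atp5o* (0.43 ± 0.14, adjusted p 0.0396, all by edgeR). *Uqcrh* was at 205, 204 and 190 CPM in WT P14 CB and 179, 204 and 192 CPM in 16GsoT/T P14 CB, so that the genotypes overlapped at P14 (-0.06 ± 0.07) and not at P35. The other 10 were *Ndufv1*, *Ndufa10*, *Ndufb9*, *Ndufb10*, *Sdha*, *Uqcrc1*, *Cox4i1*, *Cox5b*, *Atp5a1* and *Atp5b*, between 0.34 and 0.41. The median over the 81 members was 0.24. DESeq2 called 21, and single libraries moved the count: it was 7 without WT P35 CB replicate 3, 8 without 16GsoT/T P35 CB replicate 1 or replicate 3, and 23 without 16GsoT/T P35 CB replicate 2.

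At P35, 2 of 81 members had a larger genotype effect in CB than in HC and 0 a smaller one, where 4.50% of all genes were called with a larger and 5.10% with a smaller effect. These were *Cox5b* (0.74 ± 0.21, adjusted p 0.0347) and *Sdha* (0.36 ± 0.11, adjusted p 0.0455, both by edgeR). *Cox5b* was at 114, 135 and 158 CPM in WT P35 HC and 134, 78.4 and 107 CPM in 16GsoT/T (-0.33 ± 0.18), with wide overlap, and *Sdha* at 415, 407 and 386 CPM and 399, 378 and 383 CPM (-0.06 ± 0.10). The median over the 81 members was 0.27, close to that of the age interaction, but the SEs were larger. The count was 26 without 16GsoT/T P35 HC replicate 1, the library in which nearly every subunit gene was highest. It was 1 without WT P35 HC replicate 1 or 3 or WT P35 CB replicate 1 or 2, and 0 without WT P35 HC replicate 2, WT P35 CB replicate 3, 16GsoT/T P35 HC replicate 2 or 3, or 16GsoT/T P35 CB replicate 1 or 3. The statement on single genes in this interaction rests on those libraries. At P14, 0 of 82 members had a called interaction with region, where 0% of all genes were called in either direction, and 1 (*Ndufa3*, 0.23 ± 0.08, named after its value was seen) passed an unadjusted p of 0.05. DESeq2 called 0 as well. In HC, 0 of 81 members had a called interaction with age or passed an unadjusted p of 0.05, where 0.00666% of all genes were called with a larger effect and 0% with a smaller one, and DESeq2 called 0.

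WT levels of the same genes depended on region and age. At P35, the regions were close: 11 of 78 members were called higher in CB and 11 lower, where 27.5% of all genes were higher and 28.5% lower, and the median log2 fold change of CB over HC was -0.04. The 11 higher include *Cox6b2* and *Cox7a1*, which passed the filter on low counts through CB alone. The median of the members stood beside a median of -0.60 for cytosolic ribosomal protein genes, of which 75 of 78 were lower in CB. *Uqcrh* (0.29 ± 0.09) and *Atp5b* (0.24 ± 0.08) were higher in CB, and *Ndufa8* (-0.57 ± 0.10), *Sdhb* (-0.28 ± 0.08), *Uqcr* (-0.34 ± 0.09), *Cox6c* (-0.34 ± 0.08) and *Atp5j2* (-0.53 ± 0.10) were lower. *Atp5j2* was at 54.7 to 66.7 CPM in WT CB and 77.4 to 88.0 CPM in WT HC, so that its level in 16GsoT/T CB at P35 (78.2 to 102 CPM) overlapped with that of WT HC. The supercomplex factor gene *Cox7a2l* was lower in CB at both ages, by -0.51 ± 0.08 at P14 and -0.60 ± 0.08 at P35, and *Atp5sl* was higher at both, by 0.33 ± 0.09 and 0.54 ± 0.11.

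At P14, 20 of 81 members were called higher in WT CB than in WT HC and 41 lower, where 38.8% of all genes were higher and 38.4% lower, with a median of -0.22. The 41 lower include *Cox6a2*, which passed the filter through HC alone. Members on opposite sides belonged to the same complexes. *Ndufv2*, a core subunit of complex I, was at 164, 168 and 156 CPM in CB and 101, 100.4 and 96.1 CPM in HC (0.69 ± 0.06, adjusted p 2.38e-06 by edgeR). *Ndufa2* was lower in CB by -1.16 ± 0.08. *Atp5d*, the delta subunit of the central stalk of complex V, was at 93.5, 105 and 110 CPM in CB and 257, 257 and 243 CPM in HC (-1.32 ± 0.07, adjusted p 9.27e-08 by edgeR), and *Atp5f1* was higher in CB by 0.46 ± 0.07. *Uqcrb* and *Uqcr* of complex III had 0.53 ± 0.07 and -0.93 ± 0.09, and *Sdhb* of complex II -0.54 ± 0.06. Genes of under 1000 exon bases outside these sets had a median of -0.53 in the same comparison and the longest class of genes 0.25, and the lane of the P14 CB libraries differed. Neuron markers summed to 3526 to 3844 CPM in CB and 5227 to 5775 CPM in HC (3 of 9 called higher in CB and 6 lower), oligodendrocyte markers to 9642 to 11083 and 3012 to 5158 CPM (8 of 8 higher), and microglia markers to 91.5 to 109 and 258 to 353 CPM (7 of 7 lower). The part of length and of cell makeup in the differences of members was not tested.

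With age, most called subunit genes were lower in WT HC, while those of WT CB changed in both directions. In HC, 3 of 79 members were called higher at P35 than at P14 and 40 lower, where 12.6% of all genes were higher and 12.2% lower, and the median was -0.33. Complex IV led with 0 higher and 11 of 14 lower and a median of -0.46, and the sum of its genes was 3053.4, 2745.6 and 2840.5 CPM at P14 and 2009.1, 2032.6 and 1999.2 CPM at P35. *Cox6a1* was at 472, 411 and 401 CPM at P14 and 266, 214 and 226 CPM at P35 (-0.88 ± 0.10, adjusted p 0.000622 by edgeR). In complex III, *Uqcr* was at 172, 145 and 157 CPM at P14 and 67.9, 74.2 and 77.4 CPM at P35 (-1.13 ± 0.10, adjusted p 0.000113 by edgeR), the largest fall of a called member. In the other complexes the lowest called members were *Ndufv3* (-0.68 ± 0.10), *Sdhd* (-0.35 ± 0.08) and *Atp5d* (-0.63 ± 0.10). The 3 that rose were *Atp5j2* (0.81 ± 0.09), *Ndufs1* (0.29 ± 0.08) and *Sdha* (0.23 ± 0.08, adjusted p 0.0499 by edgeR). *Atp5j2* was at 49.8, 44.5 and 44.2 CPM at P14 and 80.2, 88.0 and 77.4 CPM at P35. Short genes outside these sets had a median of -0.21 and cytosolic ribosomal protein genes -0.23, and P14 and P35 HC were sequenced in different lanes, so that age and lane cannot be told apart. Oligodendrocyte markers summed to 3012 to 5158 CPM in WT P14 HC and 7611 to 10537 CPM in WT P35 HC, with 6 of 8 called higher, and choroid plexus markers to 108 to 906 and 81.6 to 96.6 CPM. Neuron markers, at 5227 to 5775 and 5725 to 6259 CPM, overlapped, and the part of cell makeup in the fall of the members was not tested.

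In WT CB, 24 of 80 members were higher at P35 and 25 lower, where 32.2% of all genes were higher and 30.9% lower, with a median of 0.00. *Ndufs7*, a core subunit of complex I, was at 34.1, 37.8 and 39.9 CPM at P14 and 71.4, 82.2 and 79.4 CPM at P35 (1.08 ± 0.08, adjusted p 3.63e-08 by edgeR), and *Ndufa12* at 88.1, 116 and 93.8 CPM at P14 and 51.1, 49.0 and 46.1 CPM at P35 (-1.01 ± 0.10, adjusted p 5.73e-07 by edgeR). *Ndufs7* was at 64.4 to 85.1 CPM in the WT HC libraries of both ages, so that P14 CB was the WT group apart. The WT libraries of P14 CB had 65.8% to 66.0% of reads on genes, and those of P35 CB 37.6% to 37.7%. P14 and P35 CB also had different lane codes, so that age and lane cannot be told apart in CB either. *Sdha* rose by 0.50 ± 0.06, *Uqcrc1* by 0.55 ± 0.06, *Cox8a* by 0.60 ± 0.11 and *Atp5d* by 0.61 ± 0.07, while *Uqcr* (-0.46 ± 0.08), *Cox4i2* (-0.88 ± 0.25) and *Atp5f1* (-0.46 ± 0.06) fell. *Sdha* was thus called higher at P35 in both WT regions, though in HC only just, at an adjusted p of 0.0499 by edgeR.

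**Figure D5:**
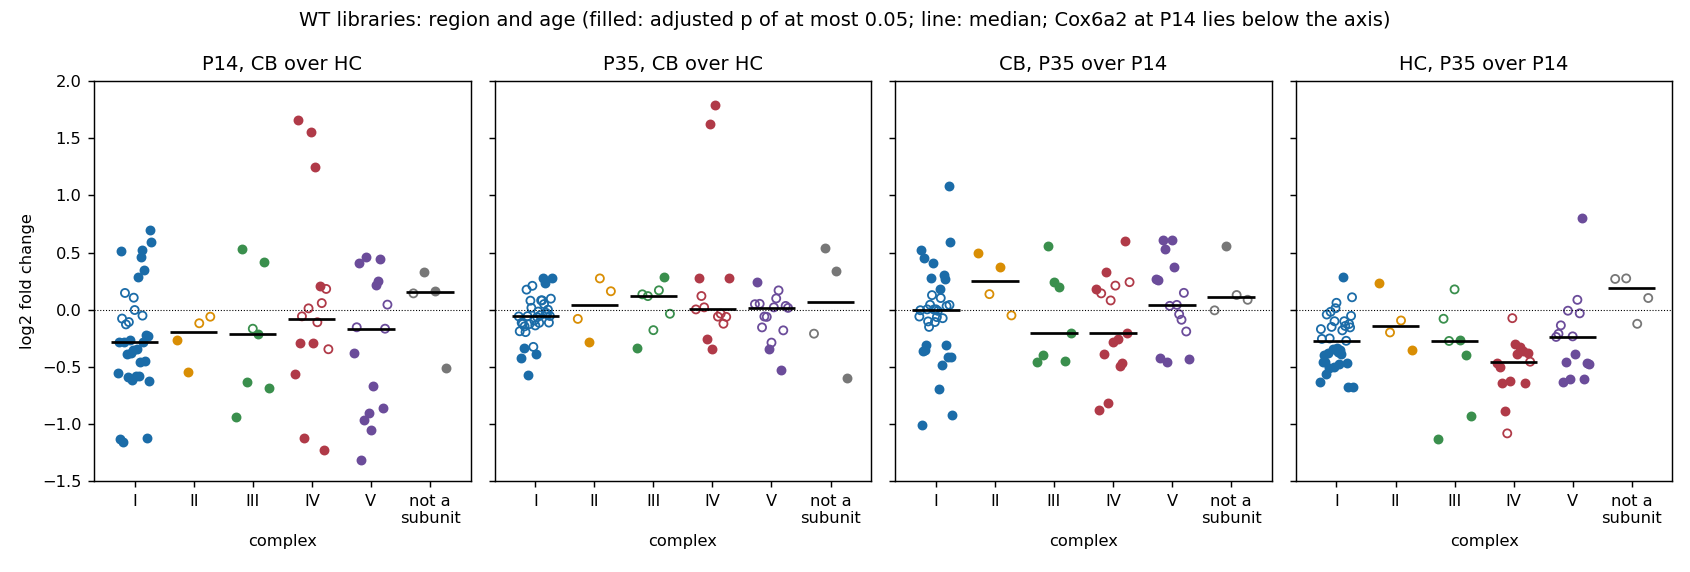
Log2 fold change (y axis) of each tested member between WT groups, CB over HC at P14 and P35 and P35 over P14 in CB and HC, by complex, filled where called at an adjusted p of at most 0.05, with the median as a line. The value of *Cox6a2* in the region panel of P14 (-4.72), which passed the filter through HC alone, lies below the axis; the points above 1 in complex IV are isoforms of low abundance, and in the panel of age in HC the points of complex IV lie below 0.

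Tissue-restricted isoforms of complex IV were rare in both regions, and some differed between them at P14. On the scale of mean CPM per kilobase of exon in WT P35 CB, *Cox4i1* was at 563 ± 37.4 and *Cox4i2*, the isoform of lung and of oxygen sensing, at 2.45 ± 0.51, *Cox6a1* was at 354 ± 60.8 and *Cox6a2*, the isoform of heart and muscle, at 0.93 ± 0.97, and *Cox7a2* was at 151 ± 13.7 and *Cox7a1*, also of heart and muscle, at 9.78 ± 1.82 (SD, n = 3). *Cox8a* was at 556 ± 98.3 and *Cox8b* at 0.66 ± 0.32, and *Cox8c* had 0 counts in 22 of the 24 libraries and at most 1 in the others. A count of 0 allows up to 3 counts, which is 0.376 to 0.584 CPM in the WT P35 CB libraries and covers counting error only. *Cox6b1* was at 247 ± 15.4 and the testis isoform *Cox6b2* at 8.96 ± 1.29, *Cox7b* at 87.7 ± 5.90 and *Cox7b2* at 2.01 ± 0.99, and *Ndufa4* at 498 ± 34.5 and *Ndufa4l2* at 2.63 ± 0.85. In each pair the common isoform was above the rare one beyond their spread. For the c ring of complex V the order was *Atp5g3* (122 ± 5.28), *Atp5g2* (59.6 ± 6.72) and *Atp5g1* (23.9 ± 2.29) per kilobase. Of the words of *Atp5g2*, 100% were also found elsewhere in the genome, against 32.9% for *Atp5g1* and 0.434% for *Atp5g3*. Reads of *Atp5g2* can thus be lost or misplaced, and its place in this order is not settled. *Atp5g1* came last through its exon union of 4908 bases, against 647 for *Atp5g2*. Before scaling by length *Atp5g1* was above *Atp5g2*, with a mean log2 CPM of 7.05 against 5.44 over both genotypes of P35 CB.

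*Cox7a1* was called higher in WT CB than in WT HC at P14, with levels of 3.24, 3.28 and 2.91 CPM in P14 CB and 1.33, 1.07 and 1.53 CPM in P14 HC (1.25 ± 0.21, adjusted p 0.000346 by edgeR). *Cox6b2* was likewise higher in CB at P14, by 1.56 ± 0.20, and *Cox4i2* by 1.66 ± 0.24. At P35, *Cox7a1* was at 3.81, 4.06 and 2.81 CPM in CB and 0.783, 1.60 and 0.563 CPM in HC, and *Cox6b2* at 4.31 to 5.71 CPM in CB and 0.798 to 2.09 CPM in HC. The counts in P35 HC were 2 to 6 for *Cox7a1* and 3 to 8 for *Cox6b2*, so that both passed the filter through CB alone, and these levels are given as a description, with no test. The same holds for *Cox6a2* at P14, which passed through HC alone, at 0.115, 0.203 and 0.217 CPM in CB and 4.17, 5.07 and 4.76 CPM in HC. It was not tested at P35, where the WT HC libraries ranged from 0.281 to 4.44 CPM and the WT CB libraries from 0 to 1.27 CPM. Of the common isoforms, *Cox6a1* was lower in CB at P14 (-1.12 ± 0.10) and had 0.02 ± 0.12 at P35, and *Cox8a* had -1.23 ± 0.10 and -0.06 ± 0.11. The c ring genes were all lower in CB at P14, at -0.90 for *Atp5g1*, -1.05 for *Atp5g2* and -0.67 for *Atp5g3*, and at P35 *Atp5g1* alone was called, at -0.34 ± 0.09.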

How the data were processed

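RNA-seq was done on poly(A) RNA of whole CB and HC from 24 mice. The authors deposited tables of read counts per gene symbol, unnormalized. Per the labels' processing notes, TopHat2 (2.0.8), HTSeq (0.6.1) and the build NCBIM37 were used; which annotation was counted, and with which strand setting, is not given in the sources used here, so reads of overlapping and antisense genes cannot be told apart. The labels name a TruSeq stranded kit and the study a KAPA stranded kit. Reads shared with processed pseudogenes can be lost or misplaced. The 5 summary lines of the counting were kept out of library sizes.

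Counts were analysed as deposited with edgeR (4.0.16, R 4.3.3): TMM scaling, a filter on low counts (minimum count 10, minimum total 15), the quasi-likelihood test across all genes tested and Benjamini-Hochberg adjustment, with calls at an adjusted p of at most 0.05. DESeq2 (1.42.0), no filter, a stricter filter, other scalings, a shared fit and leaving out each library were alternatives. SE is the absolute log2 fold change divided by the square root of F. The labels name 3 separate samples per group. Replicates were numbered in accession order, so that the numbers pair no samples. TMM scaling and the edgeR test at their main settings were tested on simulated counts for each comparison. Only genes that had passed the filter were simulated, so the filter itself was not tested. Of log2 changes of 0.6, between 16.5% (genotype by region at P35) and 67.3% (WT age in CB) were recovered, and 35.4% in P35 HC. Smaller changes, such as those of the called members in P35 CB, were not simulated. The alternative settings and the other steps were not tested on simulated counts. Members and gene lists were chosen with earlier results of these data known. The rule for named genes took, per complex, the called members with the largest changes, the 3 largest interactions, a panel of core subunits, the isoform families and up to 3 called genes per list; members outside it, such as those near the threshold, were named after their values were seen. Levels per kilobase use the union of exons of the annotation (NCBIM37). Words of 32 bases from the exons were searched in the genome to find members with copies elsewhere. Sums over a complex carry no test. The counts and medians include 1 member whose own values are not reported here.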

Additional observations from a re-analysis of the deposited data

Results flagged for a closer look

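In CB, 7.81% of all genes were called with a larger genotype effect at P35 than at P14 and 10.8% with a smaller one. The genotype effect differed between ages for 13 of 81 members by edgeR's interaction test, which is what singled them out. The 3 with the largest differences were *Atp5j2* (0.48), *Uqcrh* (0.46) and *Atp5o* (0.43 on the log2 scale, P35 effect minus P14 effect). Their own genotype effects were 0.57, 0.41 and 0.48 at P35 and 0.08, -0.06 and 0.04 at P14. At P35, 4.50% of all genes were called with a larger genotype effect in CB than in HC and 5.10% with a smaller one. The effect differed between regions for 2 of 81 members, a smaller share than of all genes. These 2 were *Cox5b* (0.74) and *Sdha* (0.36, CB effect minus HC effect). Their effects were 0.41 and 0.30 in CB and -0.33 and -0.06 in HC, and 6 of the 12 libraries, left out 1 at a time, each took this count to 0.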

How the results depend on the processing

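For P35 CB, the 48 called members became 21 in 1 fit of all 12 P35 libraries and 0 with a fold change of at least 1.5, and lay between 32 and 53 without 1 library. Of the 48, 21 were kept in all 12 settings and 28 in all 6 fits without 1 library. With a fold change of at least 1.5, the WT counts were 23 (from 61, region at P14), 3 (from 22, region at P35), 10 (from 49, age in CB) and 13 (from 43, age in HC). The count for genotype by age in CB (13) was 21 by DESeq2, 21 with no filter and between 7 and 23 without 1 library. The count for genotype by region at P35 (2) was 6 by DESeq2, 5 with no filter and between 0 and 26 without 1 library. Counts of 0 stayed 0 without any 1 library in P14 CB, P14 HC and P35 HC. Small effects changed sign when 1 library was left out. In P14 CB the ranges were -0.00345 to 0.171 for *Atp5j2*, -0.0163 to 0.132 for *Atp5o*, -0.0511 to 0.0412 for *Cox5b* and -0.112 to 1.604e-06 for *Sdha*. In P35 CB they were -0.0365 to 0.100 for *Atp5s*, -0.0738 to 0.216 for *Cox6b2*, -0.00757 to 0.0886 for *Cox7b*, -0.155 to 0.0368 for *Ndufc2* and -0.0372 to 0.0944 for *Ndufs1*. In P14 HC they were -0.0553 to 0.0666 for *Atp5j2* and -0.0128 to 0.0779 for *Sdha*, and in P35 HC -0.304 to 0.0616 for *Atp5j2*, -0.0126 to 0.214 for *Atp5o* and -0.0409 to 0.269 for *Uqcrh*. For WT region at P35 they were -0.00752 to 0.0661 for *Atp5g3*, -0.0748 to 0.154 for *Cox6a1* and -0.175 to 0.0706 for *Cox8a*. In P35 HC, WT replicate 1 alone shares its index design with the 16GsoT/T libraries, so that a fit with this covariate rests on that library and was read for effect sizes alone, with no count of calls. The causes of these shifts were not tested. Lengths of the longest transcript left the order of the c ring genes as it was, but they could not have changed it. The longest transcripts of *Atp5g1* (4715 bases) and *Atp5g2* (647 bases) are near or equal to their exon unions (4908 and 647 bases). For *Atp5g3*, the shorter length (862 against 2181 bases) only raises the gene that was already first.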
